A study of Mus musculus with 6 samples.

Results

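Transcripts of 10 genes known as targets of the transcription factor p53 were followed in mouse liver: Btg2, Psrc1, Ptp4a3, Dcxr, Ckap2, Gtse1, Perp, Sesn2, Zmat3 and Ei24. They were grouped as p53 targets of growth arrest other than Cdkn1a, Mdm2 and Ccng1 with their values in these arrays already known, and every probe set whose platform gene symbol was one of the 10 was taken. This gave 15 probe sets of 45265 on the arrays, for 10 of the 18193 genes that had a probe set with 1 symbol. All 15 lay on the 430A array and 0 on the 430B array, so each gene was measured on 1 array per genotype. Because the same signals chose the genes, their values are a description and carry no test.

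The tumour suppressor p53 is a transcription factor that accumulates after DNA damage or oncogene activity, binds response elements in its target genes and raises their transcription. Its targets stop the cell cycle, repair DNA, limit growth signalling or start cell death. The large T antigen of the polyomavirus SV40 binds p53 and blocks it as an activator, and it also binds the retinoblastoma family, which releases E2F factors and drives cells into DNA synthesis. The spliced 17kT protein keeps the retinoblastoma binding motif and lacks the p53 binding region. Adult hepatocytes seldom divide.

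Each genotype was measured once per array design, on Affymetrix mouse 430A and 430B arrays of total liver RNA from male mice of the B6SJL hybrid background, aged 32 to 37 days. LT livers came from ApoErtTA:TRE2-TAg mice making large T together with the small t antigen. 17kT livers came from mice that the labels give as ApoErtTA:TRE2-TA in one field and ApoErtTA:TRE2-TAg in another, making 17kT together with small t. WT livers came from mice without transgenes. Mice of all 3 genotypes, WT included, received doxycycline (25 µg/ml, with 2.5% sucrose) in the drinking water over 4 days, which switches on the viral genes in the transgenic mice. Small t and the ApoErtTA transgene were shared by LT and 17kT livers and absent from WT, so their part in any difference from WT cannot be told apart from that of large T or 17kT. The design text speaks of single measurements, and the sources used here do not give the number of animals behind an RNA. Viral transcripts were not analysed, so the genotype labels had no check of their own.

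Values are MAS5 signals, a linear brightness per probe set, scaled within a design to a common trimmed mean. Signals under the floor, the median of all 430A signals (90.4), were set to the floor before the log2 ratio was taken. A gene was called higher or lower at 2-fold or more, that is 1 on the log2 scale, and "at least" marks a ratio against an array at the floor. With 1 array per genotype there is no replicate spread and no p-value. The technical spread of a log2 ratio (SD) between 430A and 430B readings of 100 shared probe sets was 0.23 (LT against WT), 0.28 (17kT against WT) and 0.26 (LT against 17kT). Between 2 probe sets of 1 gene on 430A it was 0.44, 0.42 and 0.35. The SD between designs leaves out a shift common to the shared probe sets. The median difference of the 430A from the 430B log2 ratio was -0.25, 0.19 and -0.36 in the same order. Nearly all shared probe sets were above the floor, so dim ones were not covered. The 3 comparisons share arrays, so their ratios for a gene are not independent of each other.

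The tissue label held. Of 12 hepatocyte marker genes on the arrays, 12 were above the floor in all 3 genotypes, with a summed signal of 173350 in LT, 125763 in 17kT and 272854 in WT liver. Of these 12, 3 were lower by 2-fold in LT than in WT and 7 in 17kT than in WT. In LT against WT, where 11.1% of all measured genes were higher and 9.01% lower, 1 of 10 Kupffer cell markers measured was lower, 3 of 9 of endothelium, 2 of 9 of stellate cells and 1 of 3 of B cells, and 2 of 6 neutrophil markers were higher. In 17kT against WT, where 9.97% were higher and 8.64% lower, 0 of 10 Kupffer cell markers passed, 1 of 9 of endothelium was higher and 1 lower, 1 of 9 of stellate cells and 1 of 3 of B cells were lower, and 1 of 3 neutrophil markers was higher. Of 4 erythroid markers 3 were at the floor in all livers, and the other, Alas2, had a signal of 124 in LT, 141 in 17kT and 1742 in WT, which was 14.0-fold lower in LT and 12.4-fold lower in 17kT than in WT. Of 5 pancreas markers 2 were at the floor in all livers, and Cela1 had 159 in LT, 209 in 17kT and 1154 in WT, 7.28-fold lower in LT and 5.51-fold lower in 17kT than in WT. Of 8 T and NK cell markers 6 were at the floor in all livers and 0 passed 2-fold. The part of these markers in the results was not tested. In whole liver RNA, fewer cells of a type and less RNA per cell cannot be told apart. The control probe sets for RNA quality gave different orders: the 3' over 5' signal ratio of the Gapdh control on 430A was 3.08 in LT, 3.53 in 17kT and 5.81 in WT, and that of the Actb control was 2.52 in LT, 2.13 in 17kT and 2.57 in WT. Both LT arrays went through fluidics station 2, and the 17kT and WT arrays through station 1. The effects of station and of the LT genotype therefore cannot be told apart, and the part of RNA quality in the results was not tested. The deposited 17kT signals carry more decimals than the others, the lowest on 430A being 0.061627 in 17kT, 0.1 in LT and 0.2 in WT. Whether the 17kT arrays were run or processed apart from the LT and WT arrays was not tested. Such an effect could not be told apart from that of the 17kT genotype.

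RefSeq promoter sequences (GRCm38.p6) were held for 7 of the 10 genes, Ptp4a3, Perp and Zmat3 being named only. The 250 bases before the start site are shown for 4 genes, all of them highest in 17kT liver. Psrc1 and Btg2 were 2-fold or more above both LT and WT there. Ckap2 was 2-fold or more above WT in both transgenic livers, and Ei24 stayed within 2-fold of WT with the reported scaling. Each sequence is written 5′ to 3′ on the strand of the gene. Capitals mark CCAAT (the NF-Y box), TTTGAA (a cell cycle homology element), 3 E2F forms (TTTCGCGC, TTTGGCGC and TTTCCCGC) and the p53 response element half-site by its consensus, each searched on both strands.
Psrc1, first of 2 start sites, chr3:108383554-108383803, plus strand: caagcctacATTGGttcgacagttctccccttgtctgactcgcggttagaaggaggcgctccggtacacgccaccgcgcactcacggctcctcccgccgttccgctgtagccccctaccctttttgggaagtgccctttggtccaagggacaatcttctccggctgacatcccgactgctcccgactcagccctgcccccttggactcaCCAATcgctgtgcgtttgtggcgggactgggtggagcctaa
Btg2, chr1:134079156-134079405, minus strand: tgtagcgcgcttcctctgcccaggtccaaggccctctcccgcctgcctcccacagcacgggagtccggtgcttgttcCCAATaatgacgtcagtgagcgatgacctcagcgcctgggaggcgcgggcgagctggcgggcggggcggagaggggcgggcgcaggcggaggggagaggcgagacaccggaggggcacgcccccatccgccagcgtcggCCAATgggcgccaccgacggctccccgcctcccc
Ckap2, chr8:22185820-22186069, minus strand: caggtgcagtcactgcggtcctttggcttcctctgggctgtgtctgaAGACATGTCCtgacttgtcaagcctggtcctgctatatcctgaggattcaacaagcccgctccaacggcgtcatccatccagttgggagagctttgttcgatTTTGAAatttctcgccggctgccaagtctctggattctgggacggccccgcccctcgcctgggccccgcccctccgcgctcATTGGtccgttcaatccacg
Ei24, chr9:36797335-36797584, minus strand: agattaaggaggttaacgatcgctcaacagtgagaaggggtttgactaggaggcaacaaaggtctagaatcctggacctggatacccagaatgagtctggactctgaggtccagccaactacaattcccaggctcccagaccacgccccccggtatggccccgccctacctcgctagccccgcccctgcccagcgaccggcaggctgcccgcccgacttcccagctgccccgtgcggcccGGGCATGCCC
A p53 half-site was found in Ckap2, beginning 203 bases before the start, and in Ei24, beginning 10 bases before it. Among 32851 promoters of the same length, 7.13% held one. CCAAT was found in Btg2, Psrc1, Dcxr, Ckap2, Gtse1 and Sesn2, and in 33.8% of all promoters. TTTGAA was found in Ckap2, 101 bases before the start, and in 16.0% of all promoters. No E2F form was found in the 7 genes, and 1.53% of all promoters held one. No 2 matches overlapped. A match is only a run of letters in this window, and response elements outside it were not searched.

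In 17kT against WT, 9 genes were above the floor on 1 array or both, and 6 of them were higher by 2-fold or more: Psrc1, Ptp4a3, Ckap2, Gtse1, Btg2 and Zmat3. 0 were lower. Of all measured genes 9.97% were higher and 8.64% lower by that rule (11.0% and 8.62% on the 430A array alone). In LT against WT, 8 genes were measured, 1 was higher (Ckap2) and 1 lower (Dcxr), against 11.1% higher and 9.01% lower of all measured genes (10.8% and 8.58% on 430A). In LT against 17kT, 7 of 9 measured genes were lower in LT and 0 higher, against 4.23% lower and 4.47% higher of all measured genes (2.48% and 2.46% on 430A). The genes were picked on these same signals, so nothing is read from these shares.

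The median log2 ratio of the measured members was 0.09 (LT against WT), 2.11 (17kT against WT) and -1.65 (LT against 17kT). For all measured genes it was 0.02, 0.07 and -0.03. Members ranged between -2.78 and 1.80 in LT against WT and between -3.15 and -0.17 in LT against 17kT. In 17kT against WT they ranged between -0.43 and 3.54, the top being a bound for Psrc1, which was under the floor in WT. The median of 2.11 in 17kT against WT was the value of Btg2, whose second probe set differed. Psrc1, Ptp4a3, Gtse1, Btg2 and Zmat3 were 2-fold or more above both LT and WT in 17kT liver. These were 5 of the 10 genes, and Sesn2, 1 of the 10, was at the floor in all 3 livers. Of all genes above the floor in at least 1 liver, 1.39% had that pattern (1.03% on 430A). Of the 15 probe sets, 7 were above the floor in all 3 livers, 4 in some and 4 in none.

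**Figure D1:**
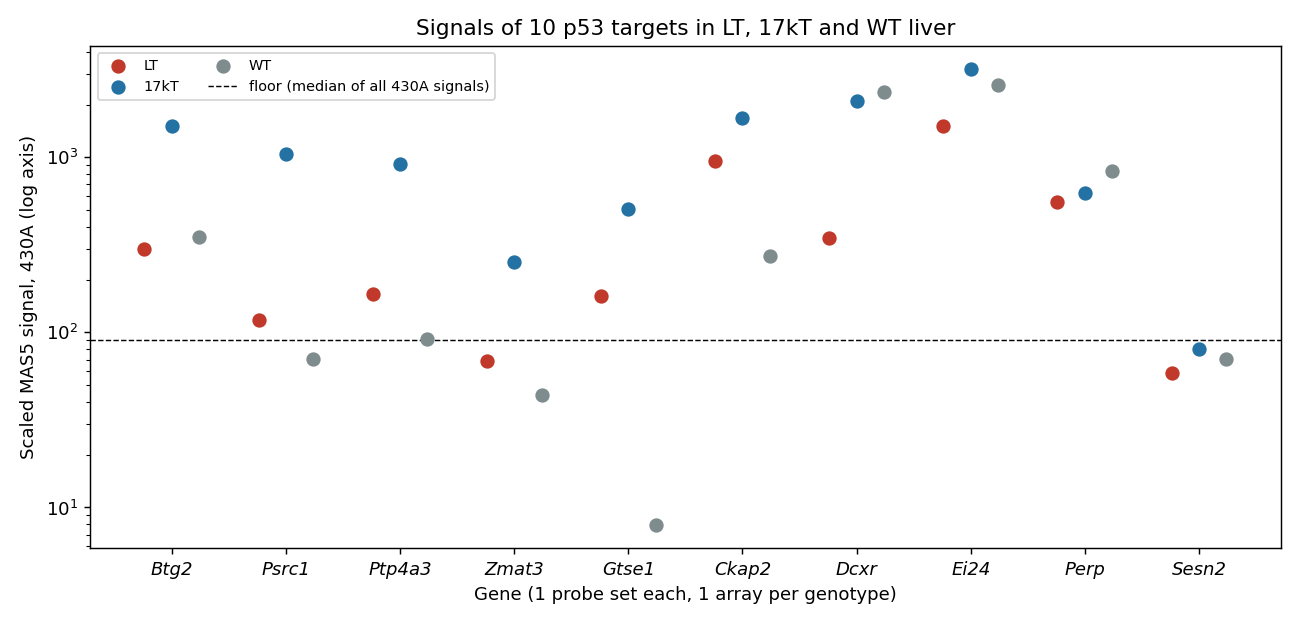
Scaled MAS5 signal (log axis, arbitrary units) of the probe set standing for each of the 10 genes in LT, 17kT and WT liver, 1 array per genotype and point, with the floor of 90.4 as a dashed line. The 17kT point is the highest of the 3 for Btg2, Psrc1, Ptp4a3, Zmat3, Gtse1, Ckap2 and Ei24, WT is highest for Dcxr and Perp, and all 3 points of Sesn2 lie under the floor.

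The genes that restrain proliferation or growth signalling came to 4: Btg2, Ptp4a3, Zmat3 and Sesn2. Btg2, of the BTG and Tob family that slows G1 progression and promotes mRNA deadenylation, had a signal of 301 in LT, 1507 in 17kT and 349 in WT liver. LT and WT lay close together, and 17kT stood apart from both. The log2 ratio was -0.21 for LT against WT and 2.11 for 17kT against WT, a 4.32-fold difference, and Btg2 was 5.01-fold lower in LT than in 17kT.

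The second probe set of Btg2 did not follow the first. Its signals were 92.0 in LT, 91.1 in 17kT and 109 in WT, all just above the floor and within 2-fold of each other. The 2 probe sets thus differed by 2.37 in their log2 ratio of 17kT to WT. On 430A, 90.7% of 1328 genes with 2 probe sets above the floor on both arrays agreed within 1 log2 unit in that comparison. Averaged over both probe sets, the Btg2 ratio of 17kT to WT was 0.93, under the 2-fold rule.

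Of the probe sets standing for the Btg and Tob family genes, that of Btg2 had the largest ratio of 17kT to WT. A relative of a member is given by the probe set that stands for it unless another is named. Btg1 had log2 ratios of 0.16 in LT and -0.06 in 17kT against WT. Tob1, another antiproliferative member, had signals of 1083 in LT, 1546 in 17kT and 767 in WT, which was 2.01-fold higher in 17kT than in WT. The 430B probe set of Tob1 was under the floor in all 3 livers. Tob2 had ratios of -0.58 and -0.01 on the probe set that stood for it, while another of its probe sets, at the floor in WT, gave 1.69 and 1.22. Btg4 was at the floor in all 3 livers, and Btg3 was not analysed here.

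Ptp4a3 encodes the phosphatase PRL-3, which slows the cycle when raised in mouse fibroblasts and is better known for its part in metastasis. Its signal was 165 in LT, 919 in 17kT and 92.0 in WT liver. All 3 were above the floor, although WT only barely. The fold over WT was 1.79 in LT and 9.99 in 17kT, and LT was 5.57-fold lower than 17kT. A second probe set gave 35.2 in LT, 87.1 in 17kT and 65.5 in WT, all under the floor, and so no direction. The log2 ratio of 17kT to WT kept its sign over 14 processing settings, between 1.72 and 3.70, the lowest being a bound from a higher floor. Several of these settings, such as the rules of 1.5-fold and 3-fold, could not change the ratio. Its relative Ptp4a2 stayed within 2-fold, with log2 ratios of 0.51 in LT and 0.27 in 17kT against WT, and Ptp4a1 was not analysed here.

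Zmat3, also called Wig1, is a zinc finger protein that binds RNA. Its signal was 68.7 in LT, 253 in 17kT and 43.9 in WT. Only the 17kT array lay above the floor, so Zmat3 was at least 2.80-fold higher in 17kT than in WT and at least 2.80-fold lower in LT than in 17kT, and LT against WT had no direction. With the floor at the 75th percentile both calls ended. Zmat2 was 2.07-fold higher in 17kT than in WT, but its other probe sets were under the floor on both of those arrays. Zmat4 was 2.44-fold lower in LT than in WT. Another of its probe sets gave only a bound of -0.23 on the log2 scale there, and the last was under the floor in all 3 livers. Zmat1 stayed within 2-fold in all 3 comparisons, and Zmat5 was at the floor throughout.

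Sesn2 encodes a sestrin, which restrains the growth kinase mTORC1 under stress. One probe set gave 58.9 in LT, 80.7 in 17kT and 70.8 in WT, and the other 18.4, 81.6 and 8.90 in the same order. All 6 values were under the floor, so Sesn2 had no direction in any comparison at this signal level. Of the other sestrins, Sesn1 had log2 ratios of -0.63 in LT and 0.04 in 17kT against WT, and Sesn3 of 0.06 and -0.42, none past 2-fold. On 430B, where the 17kT signal was under the floor, another probe set of Sesn3 was higher in LT than in 17kT by at least 1.27 on the log2 scale.

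The genes that act at the spindle, Psrc1, Gtse1 and Ckap2, are made mainly by dividing cells as well as being induced by p53. Psrc1, a microtubule-associated protein of the spindle, had signals of 118 in LT, 1050 in 17kT and 70.1 in WT. WT was under the floor and LT little above it, while 17kT stood far above both. Psrc1 was at least 11.6-fold higher in 17kT than in WT, and 8.88-fold lower in LT than in 17kT, at rank 3 of 12541 from the bottom. Its ratio of LT to WT was at least 0.39 on the log2 scale.

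Of the other probe sets of Psrc1, one of the _s_at kind, which can bind more than one transcript, gave 66.6 in LT, 437 in 17kT and 26.1 in WT, above the floor in 17kT alone and there at a log2 ratio of at least 2.27 over WT. Another gave 15.3, 26.7 and 2.80 in that order, all under the floor.

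Gtse1 encodes a microtubule-binding protein of S and G2 phase that in human cells also moves p53 out of the nucleus and restrains it. Its signal was 162 in LT, 509 in 17kT and 7.90 in WT. WT lay under the floor and both transgenic livers above it. Gtse1 was at least 5.63-fold higher in 17kT than in WT and 3.13-fold lower in LT than in 17kT. Its ratio of LT to WT was at least 0.84 on the log2 scale, under the rule of size, and 2.59 or more with the floor at the 25th percentile. With the floor at the 75th percentile the 2 calls of Gtse1 ended.

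Ckap2, which stabilises spindle microtubules, had signals of 952 in LT, 1671 in 17kT and 273 in WT. Both transgenic livers lay above WT, and 17kT above LT. The fold over WT was 3.49 in LT and 6.12 in 17kT, and the log2 ratio of LT to 17kT was -0.81, not past the rule, reaching -1.16 when arrays were scaled to the hybridisation controls. Its relative Ckap2l, on the 430B array, was 4.87-fold higher in LT and 3.24-fold higher in 17kT than in WT, with a log2 ratio of LT to 17kT of 0.59.

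**Figure D2:**
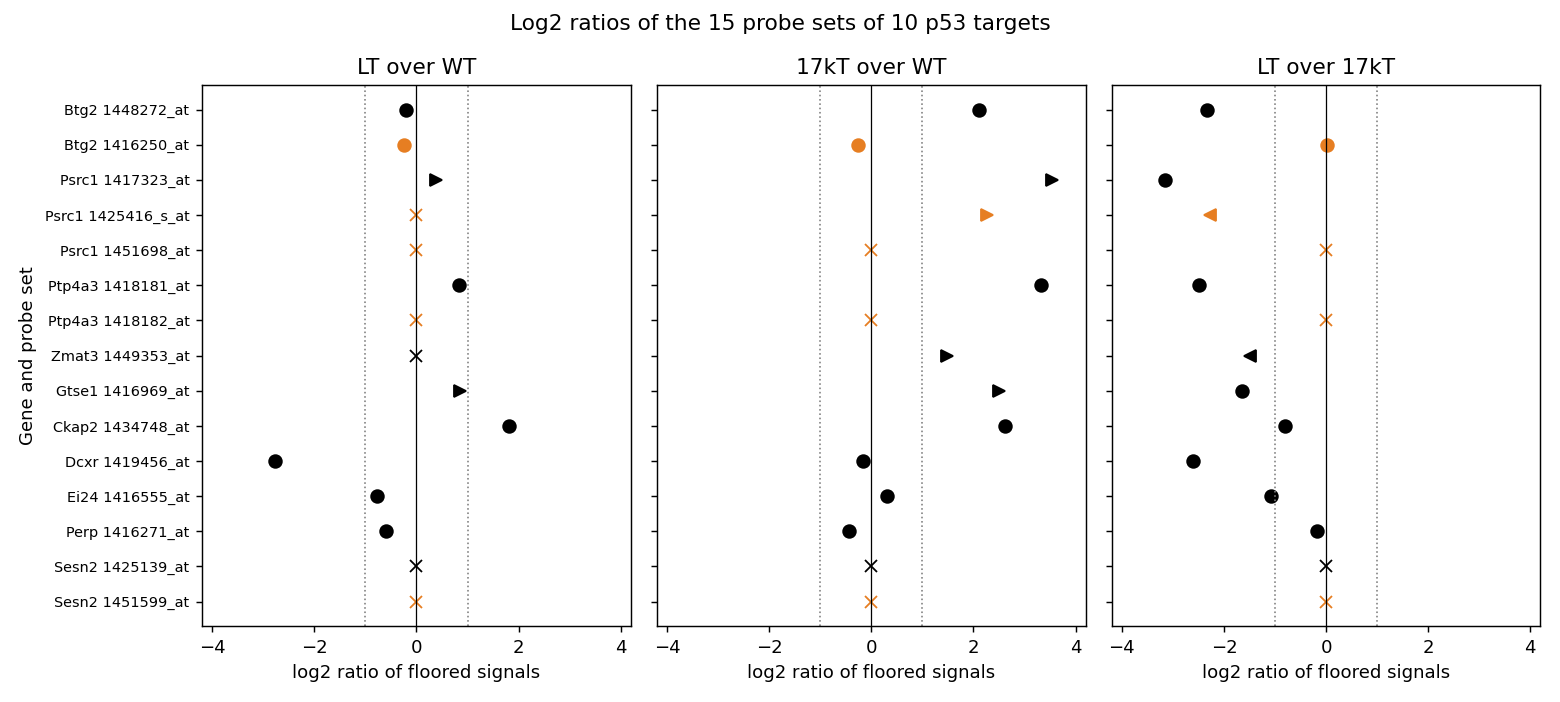
Log2 ratio of floored signals for each of the 15 probe sets, for LT over WT, 17kT over WT and LT over 17kT, with dotted lines at 1 and -1. Black marks the probe set that stands for a gene and orange the others, circles are ratios with both arrays above the floor, triangles are bounds pointing away from 0, and crosses are probe sets at the floor on both arrays. The Btg2 probe sets lie apart at 2.11 and -0.26 for 17kT over WT.

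The spindle genes were set beside 36 genes of G2 and mitosis, of which 35 were on the arrays. In LT against WT 32 of these 35 were higher and 0 lower, with a median log2 ratio of 2.61, where 11.1% of all measured genes were higher. In 17kT against WT 33 were higher and 0 lower, with a median of 2.69, where 9.97% of all measured genes were higher. Cdc20, an activator of the anaphase-promoting complex, had signals of 2835 in LT, 3431 in 17kT and 376 in WT. Top2a, a DNA topoisomerase, had 2508, 3343 and 169, and Cdk1, the mitotic kinase, 2288, 2524 and 303 in the same order. For Mki67, the proliferation antigen Ki-67, the order gave 1937, 2454 and 199. All 4 were higher in both transgenic livers than in WT, although a second probe set of Top2a, on 430B, gave log2 ratios of 0.63 in LT and 0.50 in 17kT against WT.

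Between LT and 17kT, 1 of the 35 genes of the same list was higher in LT (Bub1, log2 ratio 1.06) and 1 lower (Pbk, -1.12). Of all measured genes 4.47% were higher and 4.23% lower. The median log2 ratio of the list was -0.27, against -0.03 for all measured genes. The log2 ratios of LT to 17kT were -3.15 for Psrc1, -1.65 for Gtse1 and -0.81 for Ckap2. That of Ckap2 lay within the range of the list. The list served as a description, and no test of the difference between it and these 3 genes was made.

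Dcxr went another way. It encodes dicarbonyl and L-xylulose reductase, an enzyme of the uronate cycle that is abundant in liver and kidney. Its signal was 344 in LT, 2098 in 17kT and 2360.2 in WT. LT liver stood far under the other 2, which lay within 2-fold of each other. Dcxr was 6.86-fold lower in LT than in WT and 6.09-fold lower than in 17kT. The log2 ratio of 17kT to WT was -0.17 and took either sign over the 6 scalings, between -0.40 and 0.55. The log2 ratio of LT to WT lay between -3.03 and -2.41 over 14 settings, several of which could not change it.

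Of 12 enzymes of the uronate cycle and of sugar alcohols, Dcxr included, 10 were measured. In LT against WT 4 were lower (Dcxr, Gulo, Rgn and Khk) and 0 higher, and in 17kT against WT 4 were lower (Gulo, Rgn, Dhdh and Khk) and 0 higher. The shares of all measured genes that were lower were 9.01% and 8.64%. Gulo, which completes vitamin C synthesis in mice, had 126 in LT, 290.2 in 17kT and 3862 in WT. Rgn, which makes the lactone used by Gulo, had 570.2, 792 and 9579, and the fructokinase Khk had 857, 644 and 3553 in the same order. All 3 were low in both transgenic livers, whereas Dcxr was low in LT alone. In LT against 17kT, Dcxr and Gulo were lower in LT and 0 genes of the list higher. Of all measured genes 4.23% were lower and 4.47% higher in that comparison. Ugdh, Ugp2, Akr1a1 and Xylb stayed within 2-fold in each comparison. So did Cryl1, with 0.66 for LT against 17kT on the log2 scale, but another 430B probe set of it, under the floor in LT, ran the other way at -1.20 or less. Miox was at the floor in all 3 livers, and Sord was not analysed here.

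Ei24 and Perp are better known for cell death than for arrest. Ei24, an endoplasmic reticulum membrane protein that also serves autophagy, had signals of 1511 in LT, 3203 in 17kT and 2588 in WT. The order was LT, WT, 17kT, and no step against WT reached 2-fold. Its log2 ratio was -0.78 for LT against WT and 0.31 for 17kT against WT. Ei24 was 2.12-fold lower in LT than in 17kT, a call that ended at -0.92 when arrays were scaled to the median of all probe sets.

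Perp, a membrane protein of desmosomes and an effector of p53 in cell death, had 552 in LT, 622 in 17kT and 840 in WT. The 3 values lay within 2-fold of each other, with log2 ratios of -0.60 (LT against WT), -0.43 (17kT against WT) and -0.17 (LT against 17kT), and that of 17kT against WT took either sign over the 6 scalings. Its relative Pmp22 was 2.12-fold higher in LT and 2.14-fold higher in 17kT than in WT. Emp2 was 2.25-fold and 3.12-fold higher in that order, although its other probe sets were under the floor in all 3 livers. Emp1 and Emp3 stayed within 2-fold. Of 12 bile duct and other epithelial markers on the arrays, which include desmosome genes, 6 were at the floor in all 3 livers, Krt19, Epcam and Sox9 among them. Their summed signal was 11864 in LT, 9998 in 17kT and 8012 in WT. Most of it came from Krt8 (4108 in LT, 3040 in 17kT, 2449 in WT) and Krt18 (5389, 5090 and 3758), both within 2-fold. Cdh1, the only marker of this list past 2-fold, had 642 in LT, 185 in 17kT and 565 in WT, lowest in 17kT.

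Further targets of p53 were taken as a list of 55 genes that held none of the 10, of which 52 were on the arrays. In LT against WT, 7 of 41 measured genes were higher and 3 lower, with a median log2 ratio of 0.15, against 11.1% higher and 9.01% lower of all measured genes. In 17kT against WT, 19 of 46 were higher and 0 lower, with a median of 0.75, against 9.97% and 8.64% of all measured genes. In LT against 17kT, 1 of 47 was higher and 17 lower, with a median of -0.51, against 4.47% and 4.23%. The list too was drawn up with earlier results of these arrays known. The count of 19 was 31 when arrays were scaled to the hybridisation controls, 11 with the floor at the 75th percentile and 4 on the 430B array alone.

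Cdkn1a, the gene of the kinase inhibitor p21, had signals of 881 in LT, 2938 in 17kT and 215 in WT. Mdm2, the ubiquitin ligase that degrades p53, had 340.4, 892 and 219, and Ccng1, a cyclin of the p53 feedback loop, 154, 644 and 297 in the same order. All 3 were highest in 17kT. Cdkn1a was also 4.11-fold higher in LT than in WT. Its second probe set, with 83.7 in LT and 59.1 in WT, was under the floor in both and gave no direction there. A 430B probe set of Mdm2, above the floor in WT alone, ran the other way. The 3 probe sets of Ccng1 gave log2 ratios of 1.12, 2.02 and 2.84 in 17kT against WT, and in LT against WT they took either sign, at -0.94, -0.53 and 0.64.

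Among the list members with the largest differences, Cpt1c, Eda2r, Ak1 and Ppm1d were also highest in 17kT. Cpt1c, a carnitine palmitoyltransferase on the 430B array, had 336 in LT, 1508 in 17kT and 52.4 in WT, at least 10.7-fold higher in 17kT than in WT. Eda2r, a receptor of the tumour necrosis factor family, had 78.1, 765 and 37.1 in that order, and was at least 5.44-fold higher in 17kT than in WT and at least 5.44-fold lower in LT than in 17kT. Ak1, an adenylate kinase, had 71.3 in LT, 416 in 17kT and 93.9 in WT, although its second probe set was under the floor in all 3. Ppm1d, the phosphatase WIP1 that switches the p53 response off, was 2.63-fold higher in LT and 4.10-fold higher in 17kT than in WT, but its 430A probe set gave log2 ratios of 0.56 and 0.99, neither past 2-fold.

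**Figure D3:**
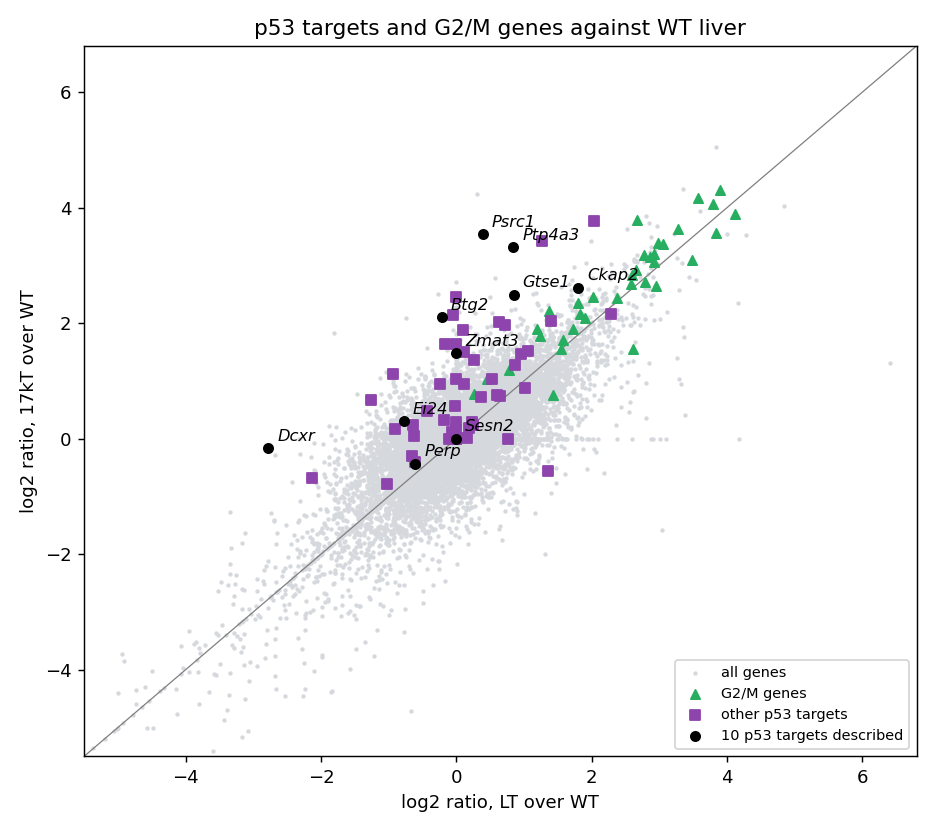
Log2 ratio of LT over WT (horizontal) and of 17kT over WT (vertical) for every gene, 1 probe set each, with the diagonal where both ratios are equal and ratios taken after the floor was set. Psrc1 (0.39 and 3.54), Ptp4a3 (0.84 and 3.32) and Btg2 (-0.21 and 2.11) lie above the diagonal, Dcxr lies at -2.78 and -0.17, and the G2 and mitosis genes (green triangles) run along the diagonal at the upper right. Both axes share the WT array.

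Genes with the closest pair of ratios to each member were looked up among 9783 genes above the floor in all 3 livers, by the distance between the log2 ratios of LT to WT and of 17kT to WT. With only 3 arrays this likeness is coarse. For Btg2 they were Shisal1 at a distance of 0.37 and the p53 target Trp53inp1 at 0.38, and 5 genes lay within 0.5. Trp53inp1 had 546 in LT, 1892 in 17kT and 511 in WT. For Ptp4a3 the nearest were Angptl4 at 0.60 and Kif4 at 0.87, and 0 genes lay within 0.5. For Dcxr they were Ehhadh at 0.15 and Golga7b at 0.47, and 2 lay within 0.5. Ehhadh, a peroxisomal enzyme of fatty acid oxidation, had 268 in LT, 1409 in 17kT and 1716 in WT.

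For Ckap2 the nearest were Gins1, a subunit of the replication helicase, at 0.11 and A2ml1 at 0.12, and 25 genes lay within 0.5. Ei24 had 682 genes within 0.5, with B4galnt4 and Haus2 the nearest at 0.03 and 0.04. Perp had 1752, with Zscan20 and Cplane1 the nearest at 0.007 and 0.01. Psrc1, Gtse1, Zmat3 and Sesn2 were under the floor in at least 1 liver and were not compared in this way.

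**Figure D4:**
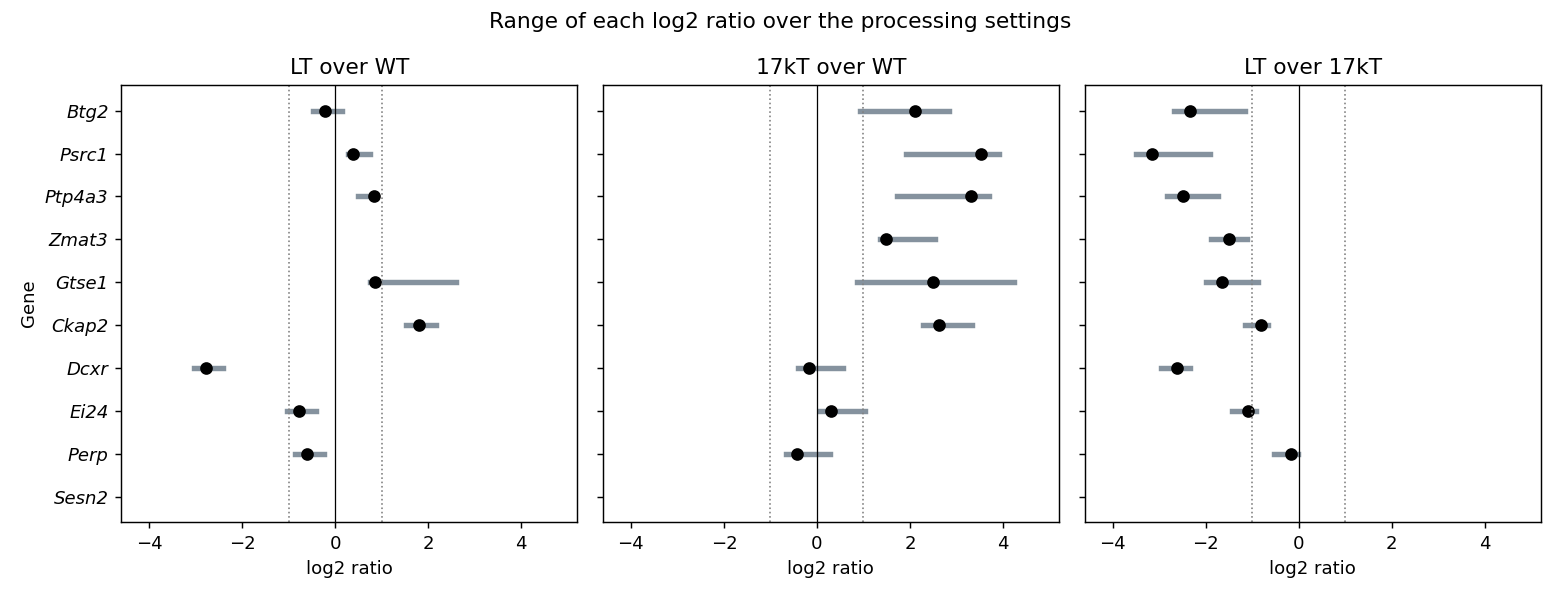
Range of the log2 ratio of each of the 10 genes over the processing settings (grey bars; 6 scalings, other floors, a pseudocount, and other choices of probe set) with the value reported as a black point, for LT over WT, 17kT over WT and LT over 17kT. Dotted lines mark 1 and -1, and Sesn2 has neither bar nor point because it was at the floor. For 17kT over WT the bars of Psrc1, Ptp4a3, Ckap2 and Zmat3 stay above 1 (Zmat3 has no value with the floor at the 75th percentile), and those of Dcxr and Perp cross 0.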

How the data were processed

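The authors deposited 1 table of signal intensities per array design, which the submitters' processing notes credit to MAS5 (version not given in the sources used here). They were already scaled: trimmed means (2% off each end) ran between 250.03 and 250.12. Settings of each scan, deposited by the authors, are other entries than expression values, such as the fluidics station, per the file headers. Names of probe sets came from the platform annotation, with symbols updated by gene identifier through RefSeq (GRCm38.p6). Those with several symbols or none (691 and 1606 on 430A, 245 and 7656 on 430B) were not named.

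Signals were rescaled to a common 2% trimmed mean, floored at the median of the design (90.4 on 430A, 140.5 on 430B) and log2 transformed with Python 3.11.15, numpy 2.4.6 and pandas 2.3.3. A gene was represented by its probe set brightest relative to the floor, _x_at sets only where no other existed. Genes were called at 2-fold. The arrays' number limits the precision. The code was tested on simulated arrays.

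The members and lists were chosen with earlier results of these data known. All members were named with every probe set, and measured family genes by the probe set standing for each, with others named where they differed in call. Of other p53 targets, the 6 largest log2 ratios past 2-fold per comparison were named, with Cdkn1a, Mdm2 and Ccng1, of G2 and mitosis genes the 4 brightest over the floor, and per member above the floor throughout its 2 nearest genes. Trp53inp1 and Ehhadh were given values, and epithelial markers named, after they were seen. The alternatives were 5 other scalings, 3 other treatments of the floor, rules of 1.5-fold and 3-fold, 2 other choices of probe set, and each design alone.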

Additional observations from a re-analysis of the deposited data

How the results depend on the processing

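Of the 120 recomputed counts, 99 stayed within 1.5 times the reported count, and none of the called ratios of a member changed sign under any setting run. Part of that agreement was fixed in advance. The probe sets standing for the members are all on 430A, and none is of the _x_at, _s_at or _a_at kind. Member counts and ratios therefore could not change on 430A alone or when those kinds were left out. Rules of 1.5-fold and 3-fold could not change a ratio. The mean over probe sets could not change that of a gene with 1 probe set above the floor. The signals as deposited were already scaled nearly alike. The count of members higher in LT against WT was 2 with the floor at the 25th percentile and with the floor as a pseudocount (Gtse1 gained), and 3 with a 1.5-fold rule. The count of members lower there was 2 when arrays were scaled on probe sets that 430A and 430B share (Ei24 gained) and 3 with a 1.5-fold rule. The members higher in 17kT against WT numbered between 4 and 7, and those lower in LT against 17kT between 5 and 8. Other p53 targets higher in LT against WT numbered 2 with the shared probe sets, 11 and 4 with the floor at the 25th and 75th percentile, 2 and 14 with rules of 3-fold and 1.5-fold, 4 with the mean over probe sets, 4 on 430A alone and 3 on 430B alone. Those higher in 17kT against WT numbered 31 when scaled to the hybridisation controls, 11 with the floor at the 75th percentile, 11 with the 3-fold rule and 4 on 430B alone. Those higher in LT against 17kT numbered 2 with the floor at the 25th percentile and with the 1.5-fold rule, and 0 with the mean over probe sets and on 430A alone. Fewer genes enter on 1 design alone and with a higher floor, and the cause of the other changes was not tested. Scaling to the hybridisation controls put the median of all measured genes at 0.41 for LT against WT and 0.47 for 17kT against WT, and the shared probe sets put it at -0.27 and -0.06. The 430B array holds no member, so it gave no value for them. No paired analysis was possible because each genotype has 1 array per design and no test was run. Dim probe sets limit Sesn2, Zmat3 and the WT values of Psrc1 and Gtse1 to bounds or no direction.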

Other observations

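Some p53 targets outside the 10 followed other orders across the 3 livers. Slc19a2, a thiamine transporter, had signals of 332 in LT, 904 in 17kT and 1458 in WT, and was 4.40-fold lower in LT than in WT. Its 430B probe set had 682 in LT, 1004 in 17kT and 2058 in WT. Ephx1, the microsomal epoxide hydrolase, had 1283 in LT, 4867 in 17kT and 3071 in WT, and was 2.39-fold lower in LT than in WT and 3.79-fold lower than in 17kT. Ier5, an immediate early gene, had 441 in LT, 403 in 17kT and 70.5 in WT, at least 4.88-fold higher in LT and at least 4.46-fold higher in 17kT than in WT, while its other probe sets were under the floor in all 3.

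Ikbip was the list member higher in LT than in 17kT, with 665 in LT, 177 in 17kT and 261 in WT on the 430B probe set that stood for it. A second 430B probe set ran the other way, with 262 in LT, 366 in 17kT and 350 in WT, and a log2 ratio of LT to 17kT of -0.49 against 1.91 for the first.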
